A study of Mus musculus with 12 samples.

Results

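The 6 arrays of the medial entorhinal cortex (MEC) were examined, out of 12 arrays in the series; they are those whose titles name this region. Each carried RNA from neurons lacking Naglu (Naglu-/-) in one dye and RNA from heterozygous neurons (Naglu+/-) in the other. All mice were female, of strain C57BL/6 and 2 months old, so the controls also carry a null allele. Neuronal cell bodies were laser-captured from cresyl violet-stained sagittal sections 12 µm thick, 500 neurons per region, and their RNA was amplified before labelling. The 6 arrays form 3 biological replicates, called pairs here, each hybridised on 2 arrays with the dyes swapped, and the 2 arrays of a pair were averaged. The lateral entorhinal cortex (LEC), with another 3 pairs, served to test where MEC differs. The labels do not say how many mice gave the neurons of a sample or whether MEC and LEC of the same number share mice.

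Naglu encodes alpha-N-acetylglucosaminidase, a lysosomal enzyme that removes a terminal sugar during the stepwise breakdown of heparan sulfate. Its loss leaves heparan sulfate fragments in the lysosome and causes Sanfilippo syndrome type B, a storage disease with progressive loss of mental function. The medial entorhinal cortex is a main gateway of cortical input to the hippocampus and is known, in this mouse model, for storage material in its neurons and for activated microglia, the resident macrophages of the brain.

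On the 6 MEC arrays the median signal of a spot was 67 to 77.8 in the green dye Cy3 and 44.4 to 50.6 in the red dye Cy5. Cy5 was the dimmer channel, with 14.8% to 29.4% of its spots well above background, while Cy3 had 50.7% to 67.9%. Every value below is a log2 ratio of mutant over control after background correction and dye balancing, unless it is called a signal. The direction of pair 2 is not settled: the authors' value table gives it a sign opposite to the labelled dyes, in MEC as in LEC. Ratios follow the value table, and "turned" marks a value with pair 2 set to the labelled dyes instead. Of 10892 genes measured well enough, 0 passed limma's test at an adjusted p of 0.05 (0% of the genes tested, in MEC in either direction), and 125 (1.15%) had an unadjusted p under 0.05. The standard errors (SE) given are limma's, over 3 pairs, with a spread shared with LEC.

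Naglu itself could not be used to check the genotypes. Its brighter probe (build mm8, chromosome 11) was well above background on all 6 arrays in Cy3 and on 0 in Cy5, and read 0.03 ± 0.07 (SD, n = 3 pairs). Its other probe was above background in 0 readings of either dye. The sources used here do not give the position of these probes relative to the mutation.

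Lyz2 encodes lysozyme, an enzyme typical of phagocytes such as microglia, and had the highest mean ratio of the genes that kept 1 sign on all 6 arrays. The probe lies on chromosome 10, 116681504 to 116681563 (mm8). In pair 1 its mutant signals were 574 and 304 against control signals of 115 and 116. In pair 2 they were 227 and 247 against 115 and 118. In pair 3 they were 666 and 622 against 82.7 and 60.8. The mutant dye was brighter on every array in this direction, whether it was Cy3 or Cy5, and the ranges of the genotypes did not overlap. The pair ratios were 1.67, 1.80 and 1.89, with a mean of 1.78 (SE 0.22), or 3.45-fold. With limma and the shared spread the adjusted p was 0.411. With the 3 MEC pairs alone, where the spread comes from these pairs only, limma gave an adjusted p of 0.0381, and Lyz2 was then the 1 gene to pass. Turned, pair 2 reads −1.80 and the mean falls to 0.59 (SE 0.94, limma adjusted p = 0.792). The gene's other probe stayed near background, with 1 of 6 readings above it in each genotype, and read 0.01. Lyz1, a close relative expressed in the gut, read 0.09 at a probe above background in 3 of 12 readings.

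Next came Ctss, which encodes cathepsin S, a lysosomal protease of antigen-presenting cells (chromosome 3, 95641644 to 95641703, mm8). Its pair ratios were 0.90, 0.51 and 0.94, a mean of 0.78 (SE 0.19) or 1.72-fold, and the mean turned was 0.44. The 6 arrays ranged from 0.18 to 1.17, so pair 2 held both the lowest array and a value of 0.84 on its dye-swapped partner. The unadjusted p was 0.00504 and limma's adjusted p 1.00. Because Lyz2 and Ctss led the comparison, their promoters are shown (RefSeq, build GRCm38.p6, 250 bases before to 50 bases after the start). Capitals mark AGGAAG, or CTTCCT on the other strand, the core that the macrophage factor PU.1 shares with other ETS factors.
Lyz2, chr10:117282223-117282522, minus strand: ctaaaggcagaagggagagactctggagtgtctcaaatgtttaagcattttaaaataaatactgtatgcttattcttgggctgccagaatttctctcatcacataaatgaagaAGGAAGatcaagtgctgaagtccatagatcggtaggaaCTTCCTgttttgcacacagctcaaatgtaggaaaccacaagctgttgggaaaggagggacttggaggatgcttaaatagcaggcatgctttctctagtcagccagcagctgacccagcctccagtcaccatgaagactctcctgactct
Ctss, chr3:95526536-95526835, plus strand: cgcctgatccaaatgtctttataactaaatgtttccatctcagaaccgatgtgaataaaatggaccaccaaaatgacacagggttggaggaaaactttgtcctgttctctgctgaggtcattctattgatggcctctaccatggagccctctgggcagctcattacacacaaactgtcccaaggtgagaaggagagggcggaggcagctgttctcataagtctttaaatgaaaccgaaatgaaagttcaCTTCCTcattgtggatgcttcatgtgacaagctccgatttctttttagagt
Lyz2 held 2 matches and Ctss 1. This core was present in 35.1% of the 27025 promoters searched, so a match is common. The search took 1 promoter per gene and left out 1 chromosome. Among the measured genes searched the core was in 2446 of 7581 (32.3%), and in 10 of the 20 microglial genes searched (25 were measured). These matches describe the letters and nothing about binding.

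The list of microglial and macrophage markers had 25 measured members of 40, and 19 of them read above 0, with a median of 0.04. A gene could be kept through LEC alone. Within MEC, 20 of the 25 had 4 or more of 6 readings of 1 genotype well above background, as had 9828 of all 10892 genes. Over all genes 5138 of 10892 (47.2%) read above 0 and the median was 0.00. The members' pair medians were 0.07, 0.10 and 0.09, and the median turned was 0.06, with 17 of 24 above 0. Over all genes the turned median was itself 0.03, with 61.7% above 0, and every turned median given here is to be read against that value. Members with 1 sign on all 6 arrays were Lyz2 and Ctss, against 2% of all genes. Trem2, a receptor for lipids on microglia, read 0.47, 0.57 and 0.15 (mean 0.40, turned 0.02). C1qc, a chain of complement C1q, read 0.17, 0.04 and 0.33 (mean 0.18, turned 0.16). At the other end Coro1a, an actin-binding protein of leukocytes, read −0.06 and the lysosomal membrane protein Laptm5 −0.04. The summed level of the 25 markers, in normalised signal, was 3460 to 3718 in mutant and 2827 to 3040 in control samples, without overlap. Without Lyz2 it was 2967 to 3211 against 2672 to 2944, still without overlap, though the gap between 2967 and 2944 is narrow. Turned, these ranges were 2944 to 3144 and 2672 to 3211 and overlapped. The sum without Lyz2 still holds Ctss. A sum without both genes was not made, so a shift shared by the other markers is not shown. Of the 40 markers, 8 were above background in all 12 readings and 3 in none. The list shows small positive ratios in most members and large ones in few. More microglial material in a capture and more RNA per cell cannot be told apart in such samples.

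Other immune lists lay near 0. Genes of complement, antigen presentation and interferon response (17 measured of 51) had a median of −0.01, with 8 above 0. Their highest members included H2-K1, a class I histocompatibility chain, at 0.47, 0.15 and 0.15. Cytokines, chemokines and toll-like receptor genes (12 measured of 41) had a median of 0.01 with 6 above 0. In each list 0 members passed over all genes.

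Among the other genes above 0 on all 6 arrays were genes of neuronal signalling and exocytosis. Rgs8, a brake on G-protein signalling, read 0.55, 0.69 and 0.68 in the 3 pairs (mean 0.64, SE 0.30). Pou3f1, a transcription factor of the POU family, read 0.26, 1.43 and 0.08, so its mean of 0.59 rested on pair 2 and reversed to −0.36 when turned. Scrn1, a regulator of exocytosis, read 0.57, 0.15 and 0.87, and its other probe, dimmer but above background in all 12 readings, read 0.02. The same rule also named Itpr1, the inositol trisphosphate receptor, at 0.41, the translation factor Eif4g3 at 0.35 and the RNA editing enzyme Adarb1 at 0.35. Adarb1's 2 other probes read −0.08 and −0.02, and Itpr1's other probe 0.04. Fam168b and Sccpdh, whose roles are less clear, read 0.43 and 0.38. Turned, the means of the highest genes ran from −0.36 for Pou3f1 to 0.59 for Lyz2.

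The lowest genes included parts of the mitochondrion. Tfam, the packaging protein and transcription factor of mitochondrial DNA, read −0.48, −0.62 and −0.56 in the 3 pairs (mean −0.55, SE 0.08, or 1.47-fold lower in mutant), and the 6 arrays ran from −0.64 to −0.40. Turned, the mean was −0.14. Its 2 other probes, seldom above background, both read −0.02. Cox8a, a subunit of cytochrome c oxidase, read −0.41, −0.40 and −0.37 (SD 0.02), with a mean of −0.40 (SE 0.06), or −0.13 turned. Chchd2, a protein of the intermembrane space, read −0.29 at its main probe. Another Chchd2 probe had a mean of −0.19, but its pairs read −0.19, −0.59 and 0.195, without 1 sign. Limma's adjusted p was 0.631 for Tfam and 0.727 for Cox8a.

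Of the genes with a current symbol and 1 sign on all 6 arrays, the lowest mean belonged to Fbxo2, which marks glycoproteins for degradation, at −0.63, −0.50 and −1.08 (mean −0.74, SE 0.15). Other probes of Fbxo2, above background in all readings, read 0.03 and −0.07, so the value rests on 1 of its 3 probes. The transcript 9530080O11Rik read −0.54, −0.74 and −0.52, and Arid5b, a DNA-binding transcriptional regulator, −0.46, −0.70 and −0.55. Each had a limma adjusted p of 0.411, equal to that of Lyz2. A further Arid5b probe above background in all 12 readings had a mean of −0.21, but its pairs read −0.16, 0.03 and −0.51, without 1 sign. S100a10, the annexin-binding partner p11, read −0.44, and Mfge8, which bridges dying cells to phagocytes, −0.42. Polr2g and Snrpg, of RNA polymerase II and the spliceosome, read −0.36 and −0.33, the growth factor Ptn −0.29 and the ubiquitin ligase Peli1 −0.28. Turned, Ptn read 0.00 and the other 11 lay between −0.40 and −0.06. In all, 119 genes lay above 0 and 99 below 0 on all 6 arrays.

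**Figure D1:**
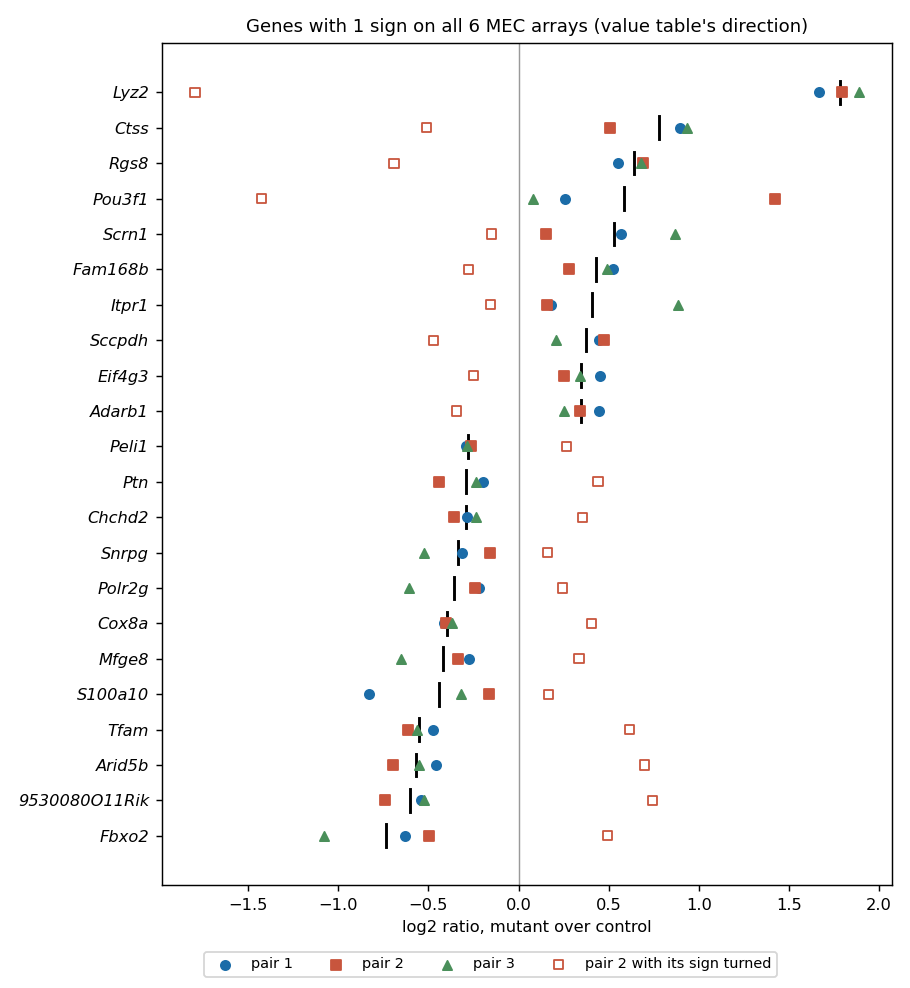
Log2 ratio of mutant over control (horizontal axis) for the genes the text names among the 12 highest and 12 lowest with 1 sign on all 6 MEC arrays; filled symbols are the 3 pairs in the value table's direction, black bars their mean, and open squares pair 2 with its sign turned. Lyz2 stands apart at 1.67 to 1.89, and each open square lies on the other side of 0 from its filled ones.

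The respiratory and ribosomal lists stood furthest below 0. Of 86 measured subunits and assembly factors of the respiratory chain and ATP synthase, 64 read below 0, with a median of −0.08. By pair the medians were −0.03, −0.01 and −0.20, so pair 3 carried most of it, and without pair 3 the median was −0.01. The median turned was −0.12. Members with 1 sign in all 3 pairs numbered 19 below 0 and 2 above 0, and 7 were below 0 on all 6 arrays. Over all 10892 genes these counts were 800, 779 and 99. Atp5e, the epsilon subunit of ATP synthase, had the lowest mean, −0.45, but its pairs read 0.24, −0.04 and −1.54. Ndufa9, a subunit of complex I, stood at the other end with 0.14, 0.30 and 0.07. Genes that maintain mitochondrial DNA or import proteins (29 measured) had a median of −0.03 with 19 below 0, and Tomm22, a receptor of the import pore, read −0.15. The respiratory list was not low in MEC alone. In LEC its median was −0.07, with 13 of 86 members above 0, against 22 of 86 in MEC. The ribosomal list had a LEC median of −0.01, with 35 of 79 members above 0.

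Of 79 cytosolic ribosomal proteins measured, 61 read below 0, with a median of −0.07 and pair medians of −0.09, 0.02 and −0.16. The median was −0.02 without pair 3 and −0.11 turned. Rps19 read −0.36, −0.08 and −0.54, and Rplp1, a protein of the ribosomal stalk, −0.25, 0.68 and −1.34, so members differed in how far pair 2 opposed pair 3. The highest were Rpl3 at 0.12 and Rps12 at 0.10. These short transcripts from multigene families can share signal with pseudogene copies. Antioxidant genes (37 measured) had 28 below 0 and a median of −0.05, with the peroxidase Gpx4 at −0.08, −0.09 and −0.56 and superoxide dismutase, Sod1, at −0.15, 0.39 and −0.82. Turned, the antioxidant median was 0.02, against 0.03 over all genes. In these lists 0 members passed over all genes. The unadjusted p was under 0.05 for 5 of 86 respiratory, 0 of 79 ribosomal and 1 of 37 antioxidant genes. Over all genes the share was 1.15%, to which the last 2 counts are close. Turned, limma's unadjusted p was under 0.05 for 19 (22.09%), 25 (31.65%) and 3 (8.108%) of them in the same order, against 11.3% of all genes. Turned shares varied between lists, from 0% in the apoptosis list to 35.71% (5 of 14) in the cathepsin list. The share was 35.29% among heat shock proteins and chaperones and 33.33% among oligodendrocyte markers, so high turned shares are not particular to the respiratory and ribosomal lists.

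Lists of lysosomal genes had medians near 0, with a few members further away. Enzymes of heparan sulfate breakdown (8 measured of 15) had a median of 0.02. Hgsnat, the acetyltransferase of the preceding step, read 0.29, 0.04 and −0.12, and Idua, the iduronidase, −0.07, −0.29 and 0.18. Other lysosomal hydrolases (22 measured) had a median of 0.01, with Ppt1, the palmitoyl thioesterase, at 0.37, 0.16 and −0.01. Lysosomal membrane proteins and the proton pump (30 measured) had a median of 0.02. Grn, the precursor of granulins, read 0.37, −0.68 and −0.53. Cathepsins and their inhibitors (14 measured) had 10 above 0 and a median of 0.04. Beside Ctss, the protease Ctsb lay above 0 on all 6 arrays, with pairs at 0.56, 0.35 and 0.08 (mean 0.33, SE 0.11, limma adjusted p 1.00, mean turned 0.10). Ctsl read 0.60, −0.08 and 0.48, and the cysteine protease inhibitor Cst3 −0.40, −0.40 and 0.18. Of the 14, 4 were above 0 in all 3 pairs, as were 779 of all 10892 genes.

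Lists of lipid and protein turnover also had medians near 0. Ganglioside metabolism (19 measured) had a median of 0.03, and the sialyltransferase St8sia5 read 0.53, 0.25 and 0.11. Cholesterol genes (27 measured) had a median of 0.04, with 16 above 0. The amyloid precursor family and its secretases (21 measured) had 15 above 0 and a median of 0.04, with Aplp2 at 0.42, 0.18 and 0.38. Genes of tau and its kinases and phosphatases (36 measured) had 24 below 0 and a median of −0.02, and tau itself, Mapt, read 0.10. Autophagy genes (34 measured) had a median of −0.01. Gabarapl1, of the autophagosome membrane, read −0.22, 0.51 and −0.69, and its relative Map1lc3a −0.07, −0.12 and −0.16. Proteasome subunits (31 measured) had a median of −0.03. Psmb4 read −0.18, −0.38 and −0.22 and lay below 0 on all 6 arrays.

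Neuronal markers were detected but varied between pairs. Of 15 excitatory markers 8 were above background in all 12 readings. The vesicular glutamate transporter Slc17a7 was not among them, with 5 of 12. Among the 10 measured markers, Camk2a, the main kinase of excitatory synapses, read 0.13, −0.68 and −0.31, and Neurod2 −0.11, −0.13 and 0.51. Inhibitory markers (17 measured) had a median of −0.01, with the potassium channel Kcnc1 at 0.78, 0.07 and 0.09, the serotonin receptor Htr3a at −0.03, −0.52 and 1.26 and somatostatin, Sst, at −0.06, −0.28 and −0.11. Markers of entorhinal layers (20 measured) had a median of −0.01. Pcp4, a calmodulin-binding protein of deep layers, read −0.71, 1.28 and 0.36, and Wfs1, known from superficial entorhinal neurons, −0.86, −0.59 and 0.18. The labels do not give the layers from which neurons were taken.

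In the synaptic, channel and chaperone lists the medians of pairs 2 and 3 had opposite signs, as they had over all genes (−0.05 in pair 2 and 0.04 in pair 3). Synaptic vesicle and SNARE genes (39 measured) had pair medians of 0.05, −0.12 and 0.11. Among them Syt11 read −0.02, −0.12 and 0.92 and Syt1, the calcium sensor of release, 0.31, −0.34 and −0.45. Glutamate and GABA receptor subunits (32 measured) had pair medians of 0.00, −0.12 and 0.09, and potassium and HCN channels (35 measured) 0.00, −0.11 and 0.10. Kcnj4, an inward rectifier, read 1.08, −0.75 and −1.72. Heat shock proteins and chaperones (34 measured) had pair medians of 0.01, −0.15 and 0.17, with Hspa8 at −0.15, −0.24 and 1.20 and the factor Hsf1 at −0.35, 0.44 and −1.18. Their median was 0.01, and 0.12 turned. Cytoskeleton and axonal transport genes (58 measured) had a median of −0.01, with the kinesin Kif5c at 0.36, −0.17 and 0.65 and Stmn4 at −0.14, 0.44 and −1.41. Immediate early genes (29 measured) had pair medians of −0.10, 0.00 and 0.17, among them Nr4a1 at −0.10, 0.95 and 0.34 and Egr4 at −0.34, 1.20 and 0.22. Neuropeptide genes (22 measured) had a median of 0.00, and Chgb, a secretory granule protein, read 1.02, 0.99 and −0.11. Genes of apoptosis and the p53 pathway (20 measured) had 14 below 0 and a median of −0.04, or 0.05 turned. Heparan sulfate synthesis and proteoglycan cores (25 measured) had a median of 0.01. In all 33 lists 0 members passed over all genes in either direction of pair 2.

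**Figure D2:**
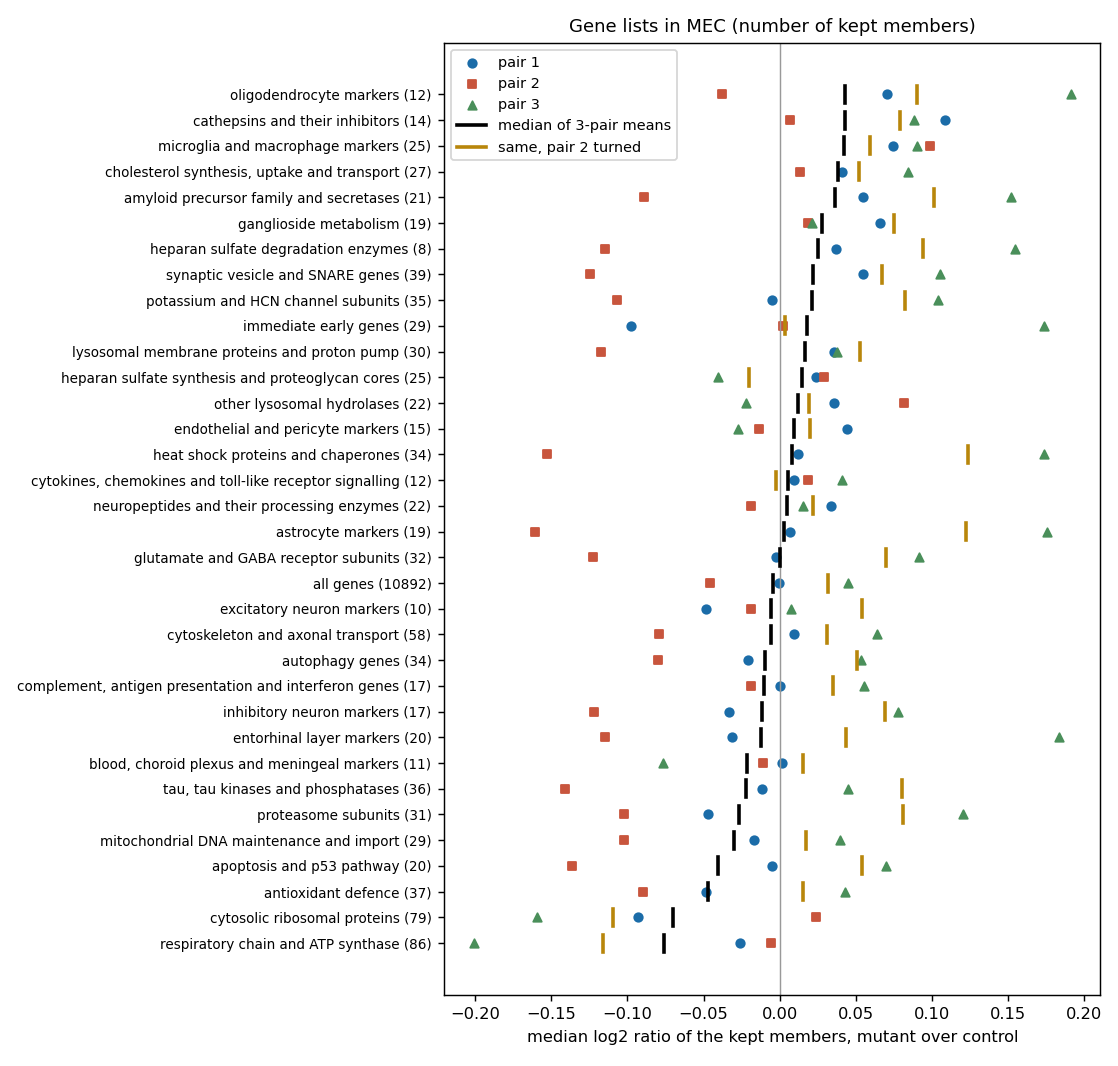
Median log2 ratio of mutant over control (horizontal axis) over the measured members of each list, with their number in brackets; symbols are the 3 pairs, black bars the median of the members' 3-pair means and gold bars the same with pair 2 turned. In most lists the square of pair 2 and the triangle of pair 3 fall on opposite sides of 0, as they do over all genes (−0.05 and 0.04), while in the microglial list all 3 pairs lie between 0.07 and 0.10.

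Markers of cells other than neurons were measured beside these results. Astrocyte markers (19 measured) had a median of 0.00 and pair medians of 0.01, −0.16 and 0.18. The glutamate transporter Slc1a2 read 0.80, 0.03 and 0.47, and glutamine synthetase, Glul, −0.25, −0.55 and −0.01. Their summed level overlapped, at 10790 to 12570 in mutant and 9500 to 12430 in control. Oligodendrocyte markers (12 measured) had 10 above 0 and a median of 0.04, with Mobp at 0.32, −0.01 and 0.45 and Gsn at 0.66, −0.38 and 0.62, and summed levels of 1797 to 2239 against 1523 to 2292. Endothelial and pericyte markers (15 measured) had a median of 0.01, with the receptor Flt1 at 0.28, 0.02 and 0.26, and summed levels of 1310 to 1364 against 1247 to 1373. Blood, choroid plexus and meningeal markers (11 measured) had a median of −0.02 and summed levels of 1302 to 1383 against 1295 to 1330. Ttr, the transthyretin of the choroid plexus, read 0.07, 0.02 and −1.62 and was above background in 5 of 12 readings, and Hbb-bt, a globin, read −0.24, −0.84 and 0.60. Whether the captures of a pair differed in such cells was not tested against the neuronal genes.

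The pairs varied in how far and in which direction they departed from 0. Across genes the SD of the pair ratio was 0.15, 0.21 and 0.26. Pairs 2 and 3 correlated at −0.58 across 10892 genes, and 73.3% of genes had opposite signs in them. Pairs 1 and 2 correlated at 0.09 and pairs 1 and 3 at 0.02. Genes are not independent replicates, so these values only describe the pairs. Within pairs, the dye-swapped arrays correlated at −0.25, 0.31 and 0.47 and, after each gene's mean dye ratio over the 6 arrays was subtracted, at 0.60, 0.86 and 0.85. After that subtraction the 2 arrays of a pair resembled each other. Part of the rise is built in, because the subtracted mean came from the same 6 arrays. The size of that part was not tested. Over all genes 14.5% had 1 sign in all 3 pairs and 218 (2%) on all 6 arrays. Turned, pairs 2 and 3 correlated at 0.58, 36.2% of genes had 1 sign in all 3 pairs, and 507 of 11089 (4.57%) on all 6 arrays. The count at an unadjusted p under 0.05 was then 1251 (11.3%), and 0 genes passed limma's adjustment.

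**Figure D3:**
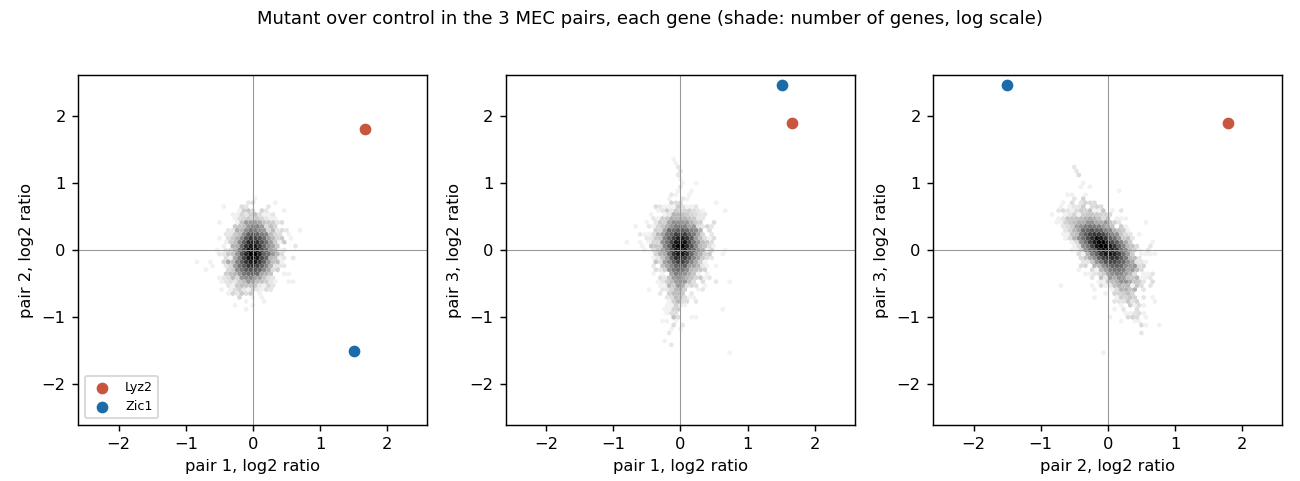
Log2 ratio of mutant over control for each gene in 1 MEC pair against another, in the value table's direction; grey shade is the number of genes on a log scale within −2 to 2 on each axis, and Lyz2 and Zic1 are coloured. The cloud of pairs 2 and 3 slopes downward (correlation −0.58), those involving pair 1 do not, and Lyz2 lies in the upper right of each panel.

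With pair 2 turned, other genes led. Zic1, a zinc finger factor abundant in cerebellar granule neurons, had the highest mean among genes with 1 sign on all 6 arrays, 1.82 (SE 0.96), with pairs 1 and 2 at about equal values (1.51 in pair 1) and pair 3 at 2.45. In the value table's direction the mean is 0.82. In LEC the same gene read 3.79, 1.75 and −1.34, on both sides of 0. Cbln1, also abundant in cerebellar granule neurons, read 0.36, 0.76 and 0.77 turned. Gabra6, a GABA receptor subunit of those cells, read 0.22, −0.58 and 0.97 in the value table's direction. Turned, Gabra6 had 1 sign on all 6 arrays and a mean of 0.59 (SE 0.45). Penk, the enkephalin precursor, read 0.35, 1.56 and 1.03 turned. The smallest limma adjusted p of that direction, 0.251, was reached by the neurofilament gene Nefh, with a turned mean of 0.48 (SE 0.05). Tenm3, a synaptic adhesion molecule, read 0.76, the complexin Cplx2 0.65, Crtam 0.73 and Ubash3b, a phosphatase of immune signalling, 0.67. Other probes of Cplx2 above background read less, −0.09 for the brightest of them in the value table's direction.

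The lowest genes turned were Fxyd6, a regulator of the sodium pump, at −0.76, −1.04 and −0.21, and Ap1s1, of clathrin adaptor complex 1, at −0.41, −0.51 and −1.07. Itpka, a kinase of excitatory synapses, read −0.55, the neuropeptide Cck −0.55, Crip2 −0.54, Fam131a −0.52, the ligand Gas6 −0.52 and Limd2 −0.52. In the value table's direction each of the genes named by this rule has pair 2 on the other side of 0 from pairs 1 and 3, and their means there run from −0.40 for Gas6 to 0.82 for Zic1. For Fxyd6 and Penk that mean has the other sign, 0.03 and −0.06.

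**Figure D4:**
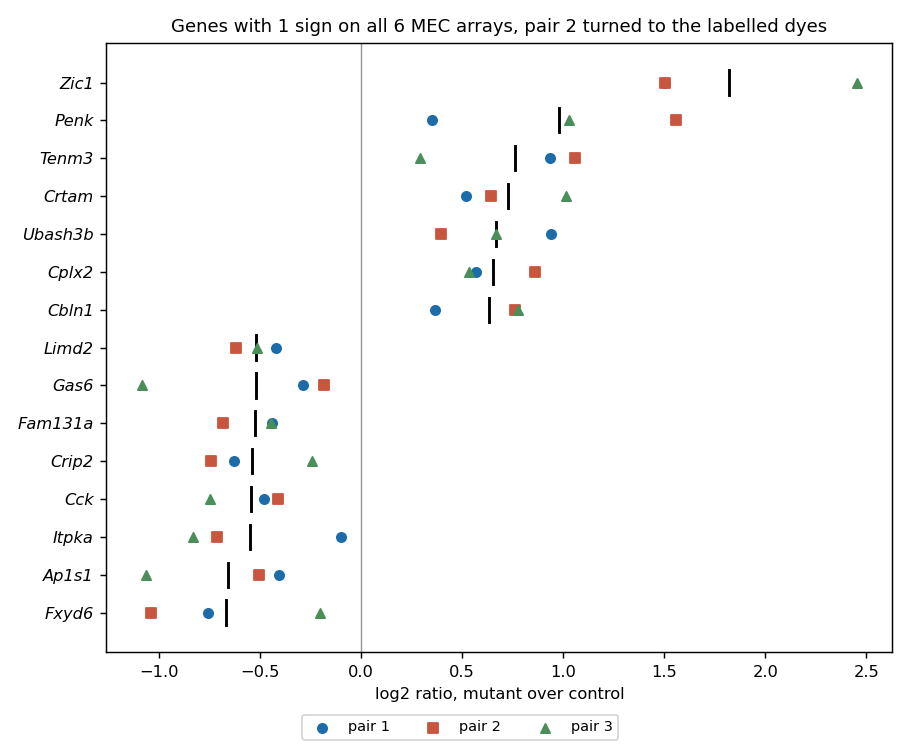
Log2 ratio of mutant over control (horizontal axis) for the genes the text names among the 8 highest and 8 lowest with 1 sign on all 6 MEC arrays when pair 2 is set to the labelled dyes; symbols are the 3 pairs and black bars their mean. For Zic1 the symbols of pairs 1 and 2 coincide, and its pair 3 lies furthest from 0, at 2.45.

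Pairs 1 and 3 do not depend on the direction of pair 2. On their 4 arrays 1066 of 10853 genes (9.82%) kept 1 sign, 564 above and 502 below 0. Pair 2 had the same sign as the others in 363 of these in the value table's direction and the opposite sign in 701. Ranked by the mean of the 2 pairs among these genes, Zic1 (1.98), Lyz2 (1.78) and Ctss (0.92) were highest, followed by Ubash3b (0.80), Crtam (0.77) and Tspan2, a tetraspanin of myelinating cells (0.72). Fbxo2 (−0.86), Ap1s1 (−0.74), Gas6 (−0.69), Cck (−0.62) and S100a10 (−0.58) were lowest. 9530080O11Rik (−0.53), Tfam (−0.52) and Arid5b (−0.51) were also among the 10 lowest. This ranking was chosen after the values were seen.

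The effect of the genotype in MEC was set against that in LEC. In LEC, 5 of 6 scanner files matched the value-table column of another LEC sample, and were assigned by that match, so every LEC value and the spread shared with LEC rest on it. By limma 0 genes passed (0% of 10892) and 59 (0.542%) had an unadjusted p under 0.05 for the difference. The 3 MEC pairs lay wholly outside the range of the 3 LEC pairs in 375 genes (3.44%). Among these, named by the size of the difference, were Fbxo2, with a difference, MEC minus LEC, of −0.65 (SE 0.22), Arid5b (−0.53, SE 0.10), 9530080O11Rik (−0.51, SE 0.10) and Tfam (−0.49, SE 0.12). In LEC Tfam read −0.16, 0.16 and −0.17, Arid5b −0.14, 0.06 and −0.05, and Fbxo2 −0.29, 0.31 and −0.29. For these genes the MEC pairs lay low and the LEC pairs around 0, and their lack of overlap follows from the rule that picked them. Vat1l, by contrast, read −0.33, −0.16 and 0.29 in MEC and 0.38, 0.47 and 0.80 in LEC, a difference of −0.62 (SE 0.19). The smallest unadjusted p among the 5 was 0.00149, for Arid5b, and all had a limma adjusted p of 1.00. Turned in both regions, the differences shrank to −0.11 for Fbxo2, −0.02 for Arid5b, −0.03 for 9530080O11Rik, 0.02 for Tfam and −0.20 for Vat1l. Lyz2 read 1.17, 2.50 and 1.64 in LEC, and its difference between regions was 0.02 (SE 0.31). Ctss read 0.79, 1.41 and 0.32 there, a difference of −0.06 (SE 0.27). All MEC arrays were scanned in 1 session and the LEC arrays in another, so region and scan session cannot be told apart.

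**Figure D5:**
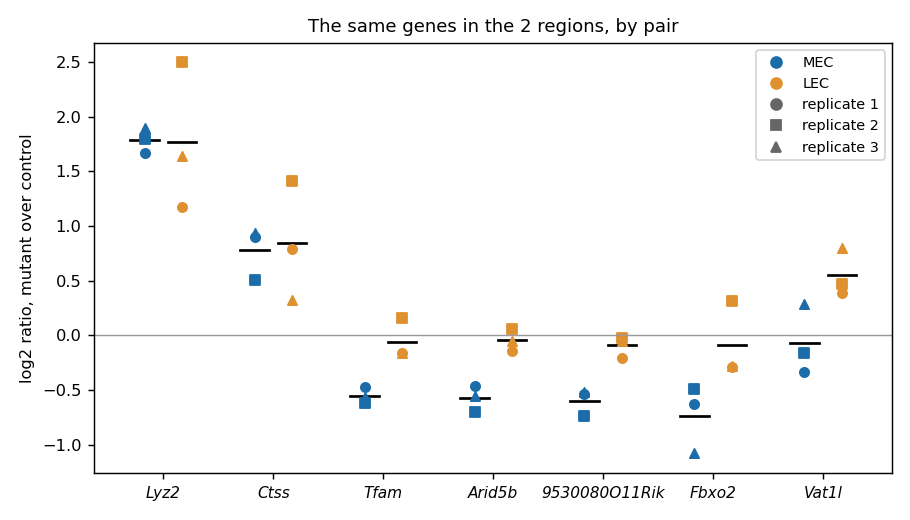
Log2 ratio of mutant over control (vertical axis) in MEC (blue) and LEC (orange) for 7 genes, with 1 symbol per replicate and black bars for the mean of 3 pairs, in the value table's direction. Tfam, Arid5b, 9530080O11Rik, Fbxo2 and Vat1l were picked among genes whose MEC and LEC pairs do not overlap. In each the MEC pairs lie below all LEC pairs. Lyz2 and Ctss, not picked by that rule, overlap between the regions.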

How the data were processed

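Per the labels, each array compared a Naglu-/- with a Naglu+/- sample in 2 dyes. The scanner files as deposited hold intensity per spot and dye, and the red-to-green log10 ratio computed by Agilent's Feature Extraction (9.5.1.1 per the file headers, 8.5.1.1 per the submitters' processing notes). The authors' deposited value table holds log2 ratios, whose centring and direction are not stated; each column was tied to 1 array over 9166 bright spots. By this tie the MEC files carry their own sample's data and the sign of replicate 2 opposes its labelled dyes, while 5 of 6 LEC files match another LEC sample's column and were reassigned to it.

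With limma 3.58.1 in R 4.3.3, local background was corrected by normexp (offset 50), dyes were balanced by loess, and log2 mutant over control was averaged over repeated spots and then over both arrays of each pair. Kept were 12975 probes for which, in either region, 4 or more of the 6 readings of 1 genotype were well above background and at least 2 pairs of each region had a value. The brightest probe stood for a gene (10892 genes, 9551 with a current symbol from a RefSeq table of GRCm38.p6). Sums of levels used both channels after the arrays' mean brightness was quantile-normalised (limma's Aquantile). limma fitted the 3 MEC and 3 LEC pairs with a mean per region; p-values are two-sided, adjusted by Benjamini-Hochberg over all genes, and measure the spread between these samples. Few arrays limit the precision. Scripts were tested on simulated data.

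Named were the 12 highest and 12 lowest genes with a current symbol and 1 sign on all 6 MEC arrays; the 8 highest and 8 lowest with replicate 2 turned; the 2 highest and 2 lowest members of each list; and the 5 with the largest regional difference among genes whose pairs do not overlap. Some genes that met these rules are not reported here. Genes outside these rules, such as Lyz1, Tspan2 and Ctsb, were chosen after their values were seen. The members and lists were chosen with earlier results of these data known. MEC and LEC samples of the same number correlated across genes at −0.18, −0.0014 and −0.36, none of them above 0. Samples of different numbers ran from −0.38 (MEC 2 with LEC 1) to 0.44 (MEC 3 with LEC 1), with 0.34 for MEC 2 with LEC 3. LEC numbers rest on the reassignment, so the numbers were not treated as pairing the regions.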

Additional observations from a re-analysis of the deposited data

How the results depend on the processing

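The count of genes passing limma in MEC was 0 under 15 of 18 alternatives, with the unadjusted counts below. Leaving out each pair in turn gave 0 to 1, the 1 being Lyz2 without LEC replicate 2 (adjusted p = 0.0191). The 3 MEC pairs alone gave 1, and 12 arrays with the pair as a random block and a dye term gave 6, among them Lyz2 (adjusted p = 0.000416), Arid5b (0.00429), 9530080O11Rik (0.00912) and Tfam (0.0312). The count at an unadjusted p under 0.05, 125 as reported, was 1251 with replicate 2 turned, 1376 with every file and dye as labelled, 1186 with the MEC pairs alone and turned, 190 with 12 arrays, 440 with no filter on dim probes, 72 with probes above background in all 12 readings, and 84 to 387 when 1 pair was left out (84 without MEC replicate 1, 323 without MEC replicate 2, 387 without MEC replicate 3). Without replicate 2 of both regions, an alternative chosen after seeing the data, it was 382. For MEC minus LEC the count, 59 as reported, was 998 turned, 712 as labelled, 402 with no filter and 49 to 236 when 1 pair was left out (130 without MEC replicate 2, 236 without MEC replicate 3, 101, 115 and 133 without LEC replicates 1, 2 and 3). With the replicate block it was 49, and 0 genes passed. Under turned, as-labelled and MEC-alone-turned settings Pou3f1 reversed to −0.36 and Ptn to 0.0019. In the value table's direction Fxyd6 reversed to 0.0257 and Penk to −0.05995, and Tfam's regional difference reversed to 0.02101 when turned. Fewer genes are tested under the strict filter and fewer samples when a pair is left out; for the other changes the cause was not tested.

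Lyz2 ran from 0.59 to 2.73 over the 18 alternatives, above 0 in each. The medians of the respiratory list (−0.12 to −0.01) and the ribosomal list (−0.15 to −0.02) stayed below 0, and that of the microglial list (0.03 to 0.15) above 0, in all 18. Those of other lysosomal hydrolases (0.01 to 0.06), cathepsins (0.03 to 0.24) and ganglioside metabolism (0.02 to 0.09) also stayed above 0. The microglial median moved by at least the SD of its pair medians in 10 of the 18. Over all genes the median ran from −0.02 to 0.03. Not all 18 are separate checks of a sign. Leaving out an LEC replicate, fitting the MEC pairs alone or using the 12 arrays cannot change a gene's MEC mean where no value is missing. The MEC pairs alone and turned repeat the turned means. Signal over background limits Cy5 most. A block for slide or scan was not run, since each array had its own slide and region and scan session cannot be told apart.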
